A study of Arabidopsis thaliana with 11 samples.

Results

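DFR, UGT78D1 and UGT78D2 are genes of flavonoid synthesis in Arabidopsis thaliana, and their transcripts were followed here across seedlings with different numbers of chromosome sets. They were chosen by symbol: each is the only gene named for its probe set in the platform annotation, which gives 3 probe sets of 22746 plant probe sets on the Affymetrix ATH1 array. The array reads 1 biotin-labelled RNA sample and measures each transcript with a set of short probes. All seedlings were of the ecotype C24 and were taken whole, at growth stage 1.02, from agar plates under 16 h of light at 21 °C and 8 h of night at 18 °C. The groups were tetraploids made with colchicine (4 chromosome sets, n = 3 arrays), triploids with the title code TFE (3 sets, n = 3), triploids with the title code TME (3 sets, n = 3) and diploids (2 sets, n = 2). Both triploid codes carry the same source label, offspring of a tetraploid and a diploid parent, and what the codes stand for is not stated there. The labels do not say whether the arrays of a group are separate sowings; p-values therefore cover only array-to-array spread within groups, part or all of which may be technical.

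Flavonoids are made from phenylalanine through chalcones and dihydroflavonols. At the dihydroflavonols the pathway branches: flavonol synthase leads to flavonols, whereas dihydroflavonol 4-reductase, encoded by DFR (AT5G42800, also called TT3), leads to anthocyanins and, in the seed coat, to proanthocyanidins. Sugars are then attached by UDP-dependent glycosyltransferases. UGT78D2 (AT5G17050) adds glucose to the 3 position of flavonols and anthocyanidins, and UGT78D1 (AT1G30530) adds rhamnose to the 3 position of flavonols. In seedlings the end products serve as pigments and as a screen against ultraviolet light, and their genes are known to respond to light, sugar and stress.

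The values are MAS5 signals scaled to the same trimmed mean on every array, so each difference is relative to the rest of the array, and a change in total RNA per cell is not visible. In whole seedlings, fewer cells of a type and less RNA per cell cannot be told apart. Rank correlations over the 15080 probe sets kept for testing ran from 0.942 to 0.973 among 10 arrays, while those of triploid TFE replicate 3 were 0.861 to 0.88. Its percentile 40 was 37.6, against 26.3 to 29.3 on the other arrays. Differences that involve triploid TFE are therefore also given without it. RNA quality and hybridisation also moved with the groups. The 3-prime to 5-prime signal ratio of actin was 0.308 to 0.403 in tetraploids, 0.559 to 0.92 in triploid TFE, 0.407 to 0.539 in triploid TME, and 0.506 and 0.524 in diploids. The geometric mean signal of 18 spiked-in control probe sets was 242 to 257 in tetraploids, 372 to 627 in triploid TFE, 272 to 425 in triploid TME, and 157 and 321 in diploids. Of 8 green tissue markers, RCA, PSAN and LHCB4.3 had a probe set of 1 gene, and their summed signal was 7359 to 8602 in tetraploids, 8678 to 9765 in triploid TFE, 7609 to 8385 in triploid TME, and 6716 and 9424 in diploids. Of 10 root markers, the root hair expansins EXPA7 and EXPA18 had one, with a summed signal of 109 to 137 in tetraploids, 35.2 to 91.1 in triploid TFE, 78.5 to 92.7 in triploid TME, and 63.5 and 64.3 in diploids. The lowest triploid TFE sum was that of replicate 3 (7.79 and 27.4). The log2 differences of EXPA18 from diploids were 1.08 in tetraploids, 0.32 in triploid TFE and 0.68 in triploid TME. Those of EXPA7 were 0.61, -0.58 and -0.05 (limma, adjusted p of at least 0.18 for both genes). Without triploid TFE replicate 3 EXPA18 had 1.08, 0.65 and 0.68 (limma, adjusted p = 0.016, 0.57 and 0.33). EXPA7 then had 0.61, 0.08 and -0.05 (limma, adjusted p of at least 0.36). The green sum is mostly RCA, whose log2 differences from diploids were -0.05 in tetraploids, 0.30 in triploid TFE and 0.06 in triploid TME. Those of PSAN were 0.15, 0.21 and 0.04 (limma, adjusted p of at least 0.57 for both genes). Without triploid TFE replicate 3 the differences in triploid TFE were 0.25 for RCA and 0.23 for PSAN. LHCB4.3, a light-harvesting protein gene, had 296, 366 and 314 in tetraploids, 442, 384 and 304 in triploid TFE and 374, 390 and 455 in triploid TME, against 497 and 576 in diploids. It was thus below both diploids on every polyploid array, and at least 8 of 9 polyploid arrays were so for 6.55% of probe sets. Its log2 differences from diploids were -0.72, -0.52 and -0.40 (limma, adjusted p = 0.052, 0.43 and 0.92), and without triploid TFE replicate 3 they were -0.72, -0.38 and -0.40 (limma, adjusted p = 0.0083, 0.60 and 0.35). No marker was at 0 on any array, and 0 of 4 seed storage markers had a named probe set. The part of these measures in the results below was not tested, except for a fit that included the level of the spiked-in controls.

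DFR had its 2 highest group means in the groups with even numbers of chromosome sets and its lowest in the triploids, but no difference passed the test. Its signal was 50.2, 45.1 and 59.7 in tetraploids. It was 36.2, 47.0 and 37.2 in triploid TFE and 41.9, 44.7 and 42.5 in triploid TME, against 55.7 and 73.7 in diploids. Every triploid array lay below both diploid arrays, whereas tetraploid replicate 3 lay between the diploids. The signals averaged 51.7 ± 7.43 in tetraploids, 40.2 ± 5.98 in triploid TFE, 43.0 ± 1.46 in triploid TME (SD, n = 3 each) and 64.7 ± 12.7 in diploids (SD, n = 2). The gene was above the percentile 40 of its array on 10 of 11 arrays, the exception being triploid TFE replicate 3, where 37.2 stood just under 37.6.

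**Figure D1:**
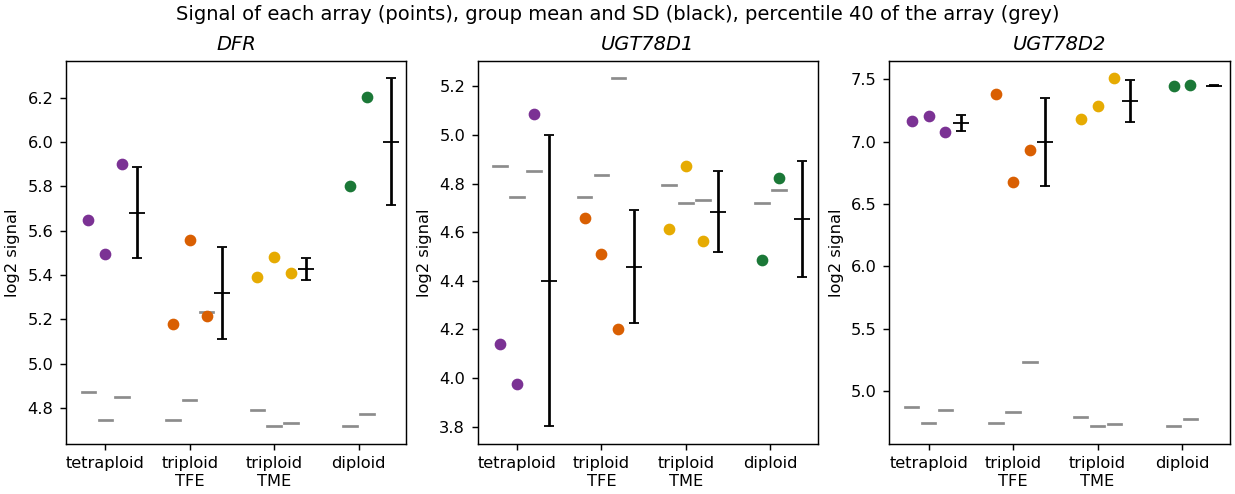
Log2 signal of DFR, UGT78D1 and UGT78D2 on each array, with tetraploids, triploid TFE, triploid TME and diploids from left to right. Points are arrays, black bars are the group mean and its SD, and grey dashes mark the percentile 40 of each array. All 6 triploid arrays of DFR lie below the 2 diploid arrays, and UGT78D1 lies above the grey dash on only 3 of 11 arrays.

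Against diploids, the log2 difference of DFR was -0.68 ± 0.24 (SE) in triploid TFE, a level 0.622 times that of diploids with a 95% interval of 0.436 to 0.889 (limma, adjusted p = 0.48). Without triploid TFE replicate 3 it was -0.63. In triploid TME it was -0.57 ± 0.24, or 0.671 times the diploid level with an interval of 0.47 to 0.959 (limma, adjusted p = 0.97). In tetraploids it was -0.32 ± 0.24, or 0.801 times with an interval of 0.561 to 1.14 (limma, adjusted p = 0.84). All 3 comparisons share the same 2 diploid arrays, which differed from each other by more than the tetraploid mean did from theirs. Without diploid replicate 2, the brighter one, the differences were -0.12 in tetraploids, -0.48 in triploid TFE and -0.37 in triploid TME, and without diploid replicate 1 they were -0.52, -0.89 and -0.78.

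Those values stand against a low rate of calls on the whole array. In tetraploids versus diploids 0.829% of the probe sets kept were called at an adjusted p under 0.05, in triploid TME versus diploids 0.126%, and in triploid TFE versus diploids 0% (limma, 0 of 15080, with 1369 at an unadjusted p under 0.05). None of DFR, UGT78D1 and UGT78D2 was among them. Non-overlap of the arrays was common: 13.7% of probe sets lay below both diploids on every tetraploid array, 10.7% on every triploid TFE array and 11.6% on every triploid TME array. DFR did so in both triploid codes. Its difference in triploid TME ranked 329 from the lowest of 15080 probe sets, with 2.18% as low or lower, and in triploid TFE 3.97% were as low or lower.

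Among the polyploids, DFR was higher on every tetraploid array than on every triploid TME array, which 8.04% of probe sets also were. The log2 difference was 0.26 ± 0.22 (SE; limma, adjusted p = 1.0), with an interval of -0.21 to 0.72, and without tetraploid replicate 3 it was 0.15. Tetraploids and triploid TFE overlapped and differed by 0.36 ± 0.22 (limma, adjusted p = 0.47), or 0.31 without triploid TFE replicate 3. Triploid TFE and TME overlapped and differed by -0.11 ± 0.22 (limma, adjusted p = 0.86), which was -0.04, -0.23 and -0.06 without triploid TFE replicate 1, 2 or 3. No neighbours in the order diploid, tetraploid, triploid TME and triploid TFE therefore differed beyond the threshold. No probe set was called in tetraploids versus triploid TME (limma, 0%, with 697 at an unadjusted p under 0.05), 0.471% were called in tetraploids versus triploid TFE and 0.0265% in triploid TFE versus triploid TME. Deviations of same-numbered tetraploid and triploid TME arrays from their group means were weakly correlated (0.103 to 0.139), which does not show a pairing. These 2 groups were also fitted alone with the replicate number as a block. That fit, chosen after seeing the data, called 42 probe sets, but none of DFR, UGT78D2 and UGT78D1, with differences of 0.26 ± 0.20, -0.18 ± 0.13 and -0.28 ± 0.36 (limma, adjusted p = 0.69, 0.67 and 0.82).

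The triploid mean of DFR was also set against the midpoint of tetraploids and diploids. It lay 0.722 times that midpoint, a log2 difference of -0.47 ± 0.16 (SE) with an interval of -0.81 to -0.12 (limma, adjusted p = 0.87). By p the gene ranked 163 of 15080 in this comparison, in which 0% of probe sets were called (limma, 0 calls, with 813 at an unadjusted p under 0.05). UGT78D2 and UGT78D1 lay nearer the midpoint, with log2 differences of -0.14 ± 0.12 and 0.04 ± 0.29 (limma, adjusted p = 0.88 and 0.99). The differences from the midpoint were -0.44 for DFR, -0.12 for UGT78D2 and 0.11 for UGT78D1 when triploid TFE replicate 3 was left out.

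Taking the 9 polyploid arrays together, 8 had less DFR signal than either diploid array, as did at least 8 of the 9 for 6.55% of the probe sets kept. The mean of the polyploid groups was 0.694 times the diploid mean, which is -0.53 ± 0.21 on the log2 scale (SE; limma, adjusted p = 0.58), and 0.232% of probe sets were called. It was -0.33 without diploid replicate 2, -0.73 without diploid replicate 1 and -0.51 without triploid TFE replicate 3. An exact permutation test of the DFR difference alone, over all 55 ways to pick 2 of 11 arrays, gave a 2-sided p of 0.0364, unadjusted, where 0.0182 is the smallest it can give, and rests on the same 2 diploid arrays. Of 3 such tests, those of UGT78D2 and UGT78D1 gave an exact p of 0.145 and 0.655. The slope of DFR was -0.11 ± 0.14 log2 per added chromosome set (limma, adjusted p = 0.95), and 0.424% of probe sets were called for their slope. Without diploid replicate 2 the slope of DFR was 0.064.

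UGT78D2 had its highest mean in diploids and its lowest in triploid TFE, and no difference passed the test. It was above the percentile 40 on 11 of 11 arrays. Its signal was 143, 148 and 135 in tetraploids. It was 166, 102 and 122 in triploid TFE and 145, 156 and 182 in triploid TME, against 174 and 175 in diploids. The diploid arrays were almost equal, and triploid TME replicate 3 lay above them. Every tetraploid and every triploid TFE array lay below both diploids, as 13.7% and 10.7% of the probe sets kept also did. Means were 142 ± 6.45 in tetraploids, 130 ± 32.8 in triploid TFE, 161 ± 18.8 in triploid TME (SD, n = 3 each) and 175 ± 0.821 in diploids (SD, n = 2).

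Triploid TFE had a UGT78D2 log2 difference of -0.45 ± 0.18 (SE) from diploids, or 0.731 times their level with an interval of 0.557 to 0.959 (limma, adjusted p = 0.51). Leaving out triploid TFE replicate 3 gave -0.42, leaving out replicate 2, the dimmest array, gave -0.29, and leaving out replicate 1 gave -0.64. In a fit that included the level of the spiked-in controls, which was highest in triploid TFE, the difference was -0.10. For DFR in triploid TFE versus diploids the same fit gave -0.995 ± 0.38, against -0.68 without the controls. Over the 11 arrays UGT78D2 and the control level had r = -0.634 (permutation p = 0.036, 0.213 after Benjamini-Hochberg adjustment over 6 such relations) and rho = -0.355 (permutation p = 0.29, adjusted 0.57). Without the 2 arrays farthest from the median r was -0.534, and with group means removed it was -0.545. Leaving out triploid TFE replicate 3 gave r = -0.556 (permutation p = 0.10, adjusted 0.60). DFR and the control level had r = -0.461 and rho = -0.527 (permutation p = 0.15 and 0.10, adjusted 0.46 and 0.41). For DFR, r turned to 0.536 with group means removed, opposite in sign to that of UGT78D2. It was -0.667 without the 2 arrays farthest from the median and -0.325 without triploid TFE replicate 3. None of the 6 relations passed after adjustment.

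In tetraploids UGT78D2 had a narrow spread and a log2 difference of -0.30 ± 0.18 from diploids, 0.812 times their level with an interval of 0.618 to 1.07 (limma, adjusted p = 0.74). In triploid TME the difference was -0.12 ± 0.18, with an interval of 0.699 to 1.21 times (limma, adjusted p = 1.0). The triploid codes differed by -0.33 ± 0.16, TFE minus TME, with an interval of -0.68 to 0.02 and overlapping arrays (limma, adjusted p = 0.49). Without triploid TFE replicate 1, 2 or 3 this was -0.52, -0.17 or -0.30, and with the spiked-in control signal as a covariate -0.14. Tetraploids stood between them, at 0.15 ± 0.16 from triploid TFE and -0.18 ± 0.16 from triploid TME (limma, adjusted p = 0.70 and 1.0). Without triploid TFE replicate 3 the first was 0.12 and without replicate 2 it was -0.0075, while without triploid TME replicate 3 the second was -0.09. The order diploid, triploid TME, tetraploid and triploid TFE held no neighbours that differed beyond the threshold. The polyploid mean was 0.817 times the diploid mean (log2 difference -0.29 ± 0.16; limma, adjusted p = 0.83), and the slope was -0.13 ± 0.10 log2 per set (limma, adjusted p = 0.84).

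**Figure D2:**
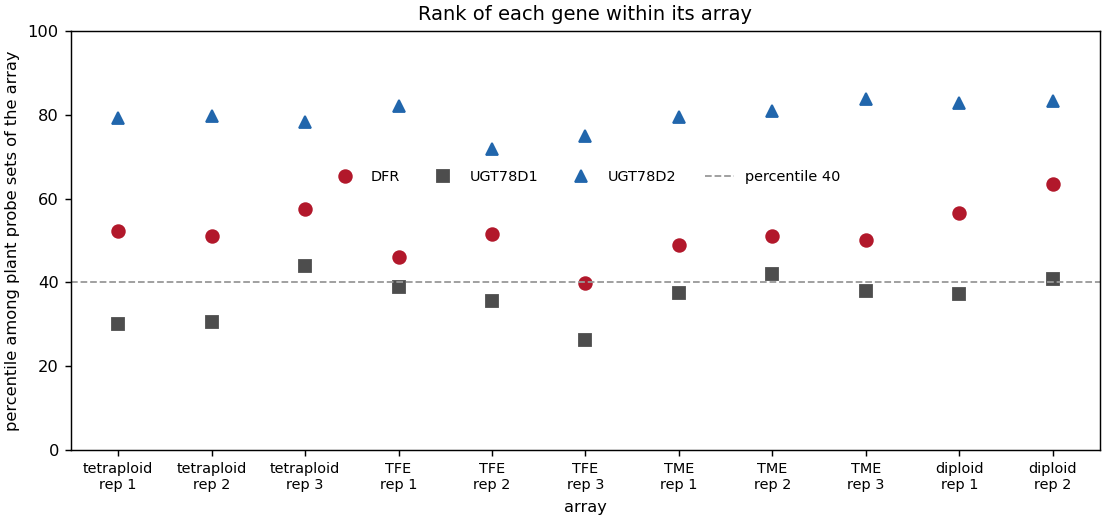
Percentile of DFR, UGT78D1 and UGT78D2 among all plant probe sets of the same array, which no scaling of the array can alter. Each marker is an array, the dashed line is percentile 40, and heights are to be read within a gene, since probe sets differ in brightness for the same amount of RNA. DFR lies at 56.5 and 63.5 in diploids and between 39.8 and 57.4 in the 9 polyploid arrays.

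The rank of a gene within its array does not depend on scaling. DFR stood at percentile 52.3, 51.0 and 57.4 of the plant probe sets in tetraploids, at 46.1, 51.4 and 39.8 in triploid TFE and between 48.9 and 51.0 in triploid TME, against 56.5 and 63.5 in diploids. UGT78D2 stood at 79.2, 79.8 and 78.3 in tetraploids, at 82.1, 71.8 and 75.0 in triploid TFE and at 79.5, 81.0 and 83.9 in triploid TME, against 82.9 and 83.3 in diploids. By rank, too, tetraploid replicate 3 was the polyploid array that reached the diploid range of DFR, and triploid TME replicate 3 the polyploid array that exceeded the diploids in UGT78D2.

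UGT78D1 was dim and showed no ordered difference between the groups. It was above the percentile 40 of its array on 3 of 11 arrays, 1 tetraploid, 1 triploid TME and 1 diploid, and so entered the test narrowly. Its signal was 17.6, 15.8 and 33.9 in tetraploids. It was 25.3, 22.8 and 18.4 in triploid TFE and 24.5, 29.3 and 23.7 in triploid TME, against 22.4 and 28.3 in diploids. All groups overlapped, and the tetraploids held both the lowest and the highest array of all 11. Means were 22.4 ± 10.0 in tetraploids, 22.2 ± 3.47 in triploid TFE, 25.8 ± 3.05 in triploid TME (SD, n = 3 each) and 25.4 ± 4.18 in diploids (SD, n = 2). At this brightness the size of any difference is uncertain.

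The log2 differences of UGT78D1 from diploids were -0.26 ± 0.44 (SE) in tetraploids, -0.20 ± 0.44 in triploid TFE and 0.03 ± 0.44 in triploid TME (limma, adjusted p = 0.96, 0.90 and 1.0). Their intervals, 0.438 to 1.60, 0.456 to 1.67 and 0.533 to 1.95 times the diploid level, each take in the DFR estimate for the same comparison as well as no change. Without triploid TFE replicate 3 the difference in that group was -0.07, and without tetraploid replicate 3 the difference in tetraploids was -0.60. Among the polyploids the differences were -0.06 for tetraploids versus triploid TFE, -0.28 for tetraploids versus triploid TME and -0.23 for triploid TFE versus triploid TME (limma, adjusted p = 0.96, 1.0 and 0.83), and without triploid TFE replicate 3 the differences that involve that group were -0.18 from tetraploids and -0.10 from triploid TME. By the test, no neighbours in the order triploid TME, diploid, triploid TFE and tetraploid differed beyond the threshold. The polyploid difference was -0.14 ± 0.37 and the slope -0.13 ± 0.20 log2 per set (limma, adjusted p = 0.99 and 0.97). Leaving out triploid TFE replicate 3 gave polyploid differences of -0.10 for UGT78D1 and -0.28 for UGT78D2, and slopes of -0.12 for DFR, -0.14 for UGT78D1 and -0.14 for UGT78D2.

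**Figure D3:**
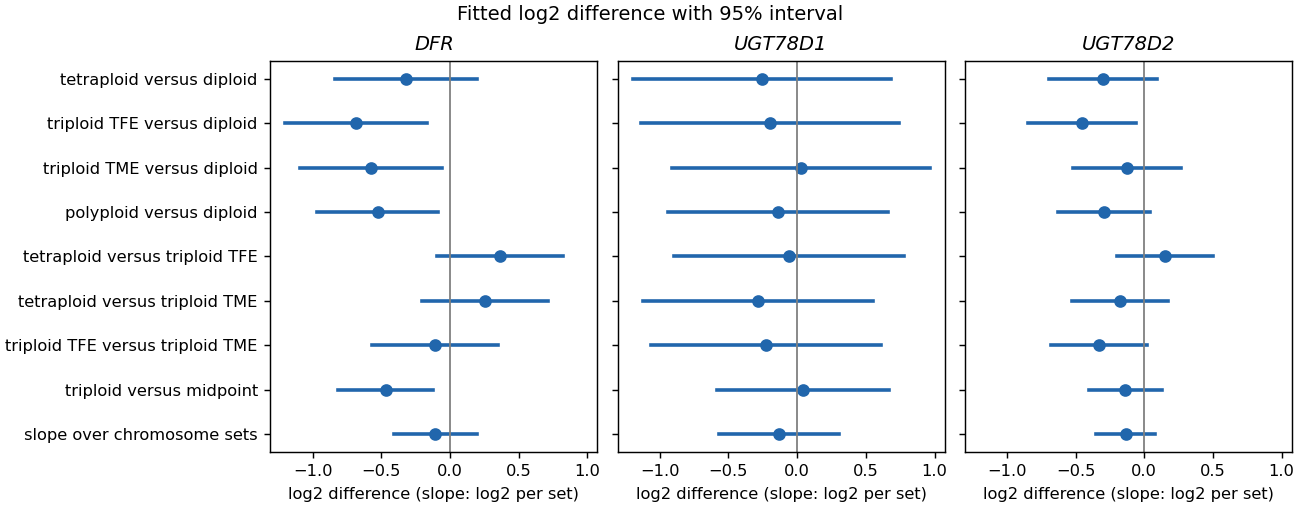
Fitted log2 differences (points) and 95% intervals (lines) of DFR, UGT78D1 and UGT78D2 in 9 comparisons. The first-named group is set over the second, and the slope is in log2 per chromosome set. The intervals of DFR leave out 0 for triploid TFE, triploid TME and all polyploids versus diploids and for the triploids versus the midpoint. That of UGT78D2 leaves out 0 for triploid TFE versus diploids. These intervals are before adjustment over the 15080 probe sets, and every interval of UGT78D1 covers 0.

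The spread within groups differed between the genes, but the SE of the tests did not follow its order. With the intensity trend in the fit, the SE against diploids was 0.24 for DFR, 0.18 for UGT78D2 and 0.44 for UGT78D1. The residual SD of log2 signal within groups was 0.191 for DFR, 0.212 for UGT78D2 and 0.365 for UGT78D1, against a median of 0.243 over the probe sets kept. DFR thus varied less within groups than most probe sets, with 33.7% having a smaller SD, while 74.3% had a smaller SD than UGT78D1.

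The genes did not vary together across arrays to a degree that the test could show. Over the 11 arrays DFR and UGT78D1 had r = 0.381 and rho = 0.136 (permutation p = 0.25 and 0.70; adjusted over the 3 pairs 0.55 and 0.88). DFR and UGT78D2 had r = 0.199 and rho = 0.055 (permutation p = 0.55 and 0.88; adjusted 0.55 and 0.88), and UGT78D1 and UGT78D2 had r = 0.202 and rho = 0.209 (permutation p = 0.55 and 0.54; adjusted 0.55 and 0.88). Without the 2 arrays farthest from the median these r values were -0.144, 0.069 and 0.437. With group means removed they were 0.675, -0.520 and -0.032, so that within groups the arrays with more DFR tended to have more UGT78D1 and less UGT78D2, as a description of these 11 arrays.

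The other genes of the pathway could be read in part. Of 60 genes on 4 lists of flavonoid synthesis, flavonoid decoration and transport, general phenylpropanoid steps and flavonoid regulators, 12 had a probe set of 1 gene and 7 of these passed the filter on low values. Beside DFR, UGT78D1 and UGT78D2 these were CHIL, a chalcone isomerase-like protein, and the glycosyltransferases UGT89C1 (flavonol 7-O-rhamnosyltransferase), UGT75C1 (anthocyanin 5-O-glucosyltransferase) and UGT79B1 (anthocyanin xylosyltransferase). No general phenylpropanoid gene and no regulator was among the 7.

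Against diploids, 7 of the 7 had a lower mean in tetraploids, 7 of 7 in triploid TFE (6 of 7 without its replicate 3) and 6 of 7 in triploid TME, with median log2 differences of -0.32, -0.45 and -0.20. Over all probe sets kept, 48.9%, 49.6% and 50.6% were lower, with medians of 0.0069, 0.0026 and -0.0032. None of the 7 passed the test in either direction in any of these comparisons, and all of them share the 2 diploid arrays. The 4 genes beyond DFR, UGT78D1 and UGT78D2 had medians of -0.62 in tetraploids, -0.51 in triploid TFE and -0.35 in triploid TME. Without triploid TFE replicate 3 the medians in that group were -0.42 over the 7 and -0.48 over the 4.

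On the log2 scale the lowest tetraploid difference among them was that of UGT75C1, whose signal averaged 24.9 ± 11.5 in tetraploids (SD, n = 3) and 44.1 ± 10.6 in diploids (SD, n = 2), or -0.93 ± 0.55 on the log2 scale (SE; limma, adjusted p = 0.73). UGT79B1 was near it, averaging 31.4 ± 10.3 in tetraploids (SD, n = 3) and 57.1 ± 11.2 in diploids (SD, n = 2), or -0.91 ± 0.33 on the log2 scale (limma, adjusted p = 0.40). Of the 11 arrays, UGT79B1 was above the percentile 40 on 10 and UGT75C1 on 7. UGT75C1 was under it in tetraploid replicates 2 and 3 (26.8 and 12.6) and triploid TFE replicates 1 and 2 (15.7 and 19.9). The size of the UGT75C1 differences is therefore uncertain. In triploid TFE and TME the UGT79B1 differences were -0.36 and -0.74 (limma, adjusted p = 0.73 and 1.0), and those of UGT75C1 were -0.70 and -0.49 (limma, adjusted p = 0.68 and 1.0). Without triploid TFE replicate 3 they were -0.56 for UGT79B1 and -1.30 for UGT75C1 in triploid TFE (limma, adjusted p = 0.74 and 0.52). UGT75C1 and UGT79B1 both attach sugars to anthocyanins, which lie downstream of DFR. On the flavonol side, UGT89C1 had a signal of 140 ± 6.64 in tetraploids, 134 ± 9.07 in triploid TFE and 154 ± 21.2 in triploid TME (SD, n = 3 each), against 176 ± 7.78 in diploids (SD, n = 2). Its log2 differences were -0.32, -0.39 and -0.20 (limma, adjusted p = 0.56, 0.49 and 1.0), the same order of groups as in UGT78D2, and -0.40 in triploid TFE without replicate 3. CHIL had differences of -0.04, -0.63 and -0.17 (limma, adjusted p = 0.99, 0.65 and 1.0). Its value in triploid TFE came from replicate 3 alone: the 3 arrays had 125, 140 and 31.8, against 119 and 136 in diploids, and without that array the difference was 0.05.

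**Figure D4:**
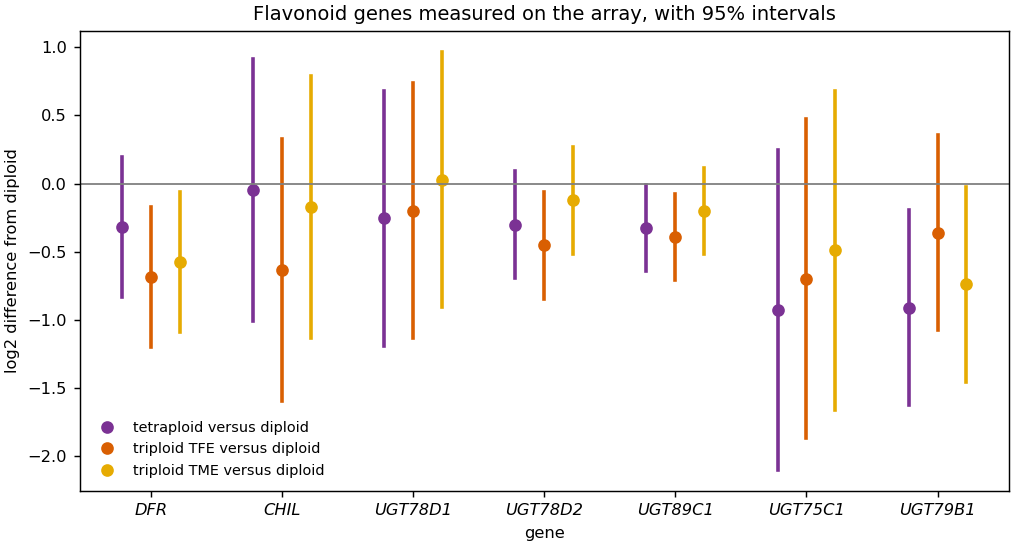
Log2 difference from diploids (points) with 95% intervals (lines) for the 7 flavonoid genes that could be tested, in tetraploids, triploid TFE and triploid TME. All but 1 of the points lie below 0, the exception being UGT78D1 in triploid TME. The point of CHIL in triploid TFE is 0.05 without replicate 3, and the wide lines of UGT75C1, CHIL and UGT78D1 show how little these arrays fix their size.

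UGT78D1 and UGT78D2 are related proteins, and UGT78D3, a flavonol arabinosyltransferase, lies near UGT78D2 on chromosome 5 with AT5G17040 between them. The UGT78D3 probe set was above the percentile 40 on 0 of 11 arrays, with signals of 2.15 to 25.5, and was not tested. Whether the probes of these relatives bind each other's RNA was not tested.

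Finally, the 8164 other probe sets with 1 gene were ranked by how closely their log2 signal followed each gene over the 11 arrays, as a description. Only 8 had r over 0.8 with DFR, of which AT5G17410, AT5G46450, AT3G01930, AT3G51010 and PIP, a proline iminopeptidase, came first with r of 0.879, 0.860, 0.843, 0.835 and 0.830. AT5G46450 had log2 differences from diploids of -0.45 in tetraploids, -0.69 in triploid TFE and -0.63 in triploid TME, nearest to those of DFR among the 5. For UGT78D1, 8 also exceeded 0.8, led by AT1G05140, AT1G71710, the asparaginase gene ASPGA1, AT1G60230 and the bZIP factor gene EEL with 0.871, 0.865, 0.864, 0.841 and 0.820. UGT78D2 had 37 above 0.8, led by AT5G08570, AT3G19000, AT2G41980, AT5G23460 and AT5G66390 with 0.912, 0.909, 0.908, 0.898 and 0.897. None of the 7 flavonoid genes kept was among the 5 closest to any of the 3. With so few of them among 8164 probe sets, this does not show whether the pathway varied together.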

How the data were processed

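The authors deposited 1 linear intensity value per probe set and array, and the submitters' processing notes name MAS5 without a version. Trimmed by 2% at each end, every array averaged 100.01. Of 22810 probe sets, 64 were controls and not tested. Plant signals below 2.27, the percentile 10 of all values, were set to it, and log2 was taken. A probe set was kept if at least 2 arrays had it over their own percentile 40 (15080 kept, 66.3%). Limma 3.58.1 in R 4.3.3 was fitted to all 11 arrays with group means and an intensity trend, after a test on simulated data. Tests are 2-sided, and adjusted p-values are Benjamini-Hochberg over all probe sets kept, with a threshold of 0.05. The slope used the number of chromosome sets as a covariate. Permutation tests of correlations used 100000 resamples. No 2 arrays were identical. Replicate numbers were checked for pairing through the correlation of deviations from group means: for tetraploids and triploid TME 3 of 3 same-numbered pairs had 0.103 to 0.139, against -0.131 to 0.026 for unmatched pairs. In the other comparisons unmatched pairs reached 0.192. Deviations from the mean of so few arrays are not independent, so these values do not show that the numbers pair the arrays. The labels do not state a pairing. Precision is limited by the number of arrays.

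Names are those of the platform annotation, updated through the TAIR10.1 gene table. It names 1 gene for 13513 plant probe sets (13436 found in the table), more than 1 for 503 and none for 8730. No coordinates or sequences were used here. The genes, lists and settings were chosen with earlier results of these data known. Besides DFR, UGT78D1 and UGT78D2, the genes named are list members with a probe set of 1 gene and, per gene, the 5 with the highest Pearson r. Marker lists for green tissue, root and seed were read as summed signal and, where a probe set was kept, also by gene.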

Additional observations from a re-analysis of the deposited data

How the results depend on the processing

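None of the 27 results for DFR, UGT78D1 and UGT78D2 passed the adjusted threshold under any limma setting run, and 538 of 558 values under other settings kept direction and side of the threshold. In many settings the difference itself could not change: another filter, another variance model, or an array left out of a group not compared. The count is therefore no measure of how stable the differences are. The exception in call was the exact permutation test of DFR in polyploids versus diploids, with a log2 difference of -0.53 and an unadjusted p of 0.0364, against an adjusted p of 0.302 to 1.0 under the limma settings. With quantile normalization UGT78D1 turned to 0.097 in tetraploids versus triploid TFE and to -0.041 for triploids versus the midpoint. With spiked-in control signal as a covariate UGT78D2 turned to -0.16 in tetraploids versus triploid TFE, 0.039 in triploid TME versus diploids and 0.097 versus the midpoint, and DFR reached 0.64 in tetraploids versus triploid TFE. The cause was not tested. With single arrays left out, the following crossed 0: the DFR slope (-0.21 to 0.064), UGT78D2 in tetraploids versus triploid TFE (-0.0075 to 0.34), and UGT78D1 in polyploids versus diploids (-0.31 to 0.027), tetraploids versus triploid TFE (-0.40 to 0.15), triploid TME versus diploids (-0.14 to 0.20) and triploids versus the midpoint (-0.063 to 0.21). The stricter filter removed UGT78D1. Same-numbered deviations correlated over 0.1 in 3 of 3 pairs of tetraploids and triploid TME, where the block with these groups alone gave 42 calls over the array, against 0 without it and 1 with these groups alone and no block. In the other comparisons 0 of 12 same-numbered pairs did, and 3 of 11 arrays correlated best with their own number. With replicate number as a block over all arrays UGT78D1 in triploid TME versus diploids turned to -0.023 and calls over the array were 103, against 125 without it, in tetraploids versus diploids. Across all settings, calls over the array ran from 29 to 271 (main 125) in tetraploids versus diploids, 0 to 6 (0) in triploid TFE and 1 to 89 (19) in triploid TME versus diploids, 2 to 124 (35) in polyploids versus diploids, 0 to 126 (71) in tetraploids versus triploid TFE, 0 to 42 (0) versus triploid TME, 0 to 7 (4) between the triploids, 0 to 1 (0) versus the midpoint and 6 to 230 (64) for the slope. The correlations between the genes passed neither with nor without triploid TFE replicate 3 (r without it 0.289, 0.066 and 0.089).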

Other observations

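The 5 flavonoid genes with a probe set of 1 gene that were too dim to be tested are given as signals. HYH, a light-signalling bZIP factor gene related to HY5, had 6.84 ± 6.76 in tetraploids, 12.0 ± 12.3 in triploid TFE and 19.7 ± 3.23 in triploid TME (SD, n = 3 each), against 24.3 ± 1.81 in diploids (SD, n = 2). No HYH value exceeded 26.1, so all lay under the percentile 40 of their array. The anthocyanin malonyltransferase gene 5MAT had 12.1 ± 8.29 in tetraploids, 13.2 ± 2.75 in triploid TFE and 15.1 ± 3.38 in triploid TME, against 19.8 ± 9.09 in diploids. BAN, the anthocyanidin reductase of the seed coat, lay under the floor on 8 of 11 arrays. UGT78D3 had 11.3 ± 11.8 in tetraploids, 16.9 ± 7.93 in triploid TFE and 5.38 ± 5.25 in triploid TME, against 4.58 ± 3.29 in diploids. The triploid TFE arrays had 9.85, 15.4 and 25.5, the last being replicate 3. The diploid arrays had 6.90 and 2.25, the latter under the floor. On 0 of 11 arrays was UGT78D3 above the percentile 40, so these differences are not interpretable in size. TRY, an R3 MYB repressor of trichome and pigment genes, had 9.69 ± 1.67 in tetraploids, 17.1 ± 12.5 in triploid TFE and 16.4 ± 5.86 in triploid TME, against 12.9 ± 1.99 in diploids.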
